A study of Mus musculus with 2 samples.

Results

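Gingival fibroblasts were the 268 barcodes, of 6165 with at least 800 detected genes in both libraries together, that were selected on the UMI counts of 8 genes. A barcode was taken when Col1a1, Col1a2, Col3a1, Dcn and Lum together gave at least 10 unique molecular identifiers (UMIs, 1 per captured RNA molecule) and at least 0.5% of its UMIs. It also needed at least 2 UMIs of Dcn and Lum, fewer than 3 UMIs of Rgs5, and less than 0.5% of its UMIs from Krt5 and Krt14. Of these cells, 220 came from the CpG ODN library and 48 from the LPS library. They were 4.50% of the 4888 CpG ODN barcodes with at least 800 genes (exact 95% binomial interval 3.94 to 5.12%) and 3.76% of the 1277 LPS barcodes (2.78 to 4.95%), and these intervals overlapped.

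Fibroblasts of the gingiva lie in the lamina propria beneath the oral epithelium, where they secrete fibrillar collagens, proteoglycans and elastic fibre proteins and also release the proteases that remodel them. They carry innate receptors and can respond to microbial ligands with chemokines, through a route in which MYD88 and IRAK kinases lead to NF-κB, whose inhibitor NFKBIA is itself an NF-κB target. Fibroblasts of 1 tissue are not uniform, and adventitial cells marked by Pi16, tenascin-rich cells and cytokine-secreting cells have been described in many organs.

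Both libraries came from the palatal gingiva of female C57BL/6J mice aged 8 to 12 weeks. The ligands were CpG ODN, an unmethylated CpG oligonucleotide that activates TLR9, and a lipopolysaccharide of Porphyromonas gingivalis that acts on TLR2 and TLR4. In either group 3 µl at 1 µg/ml lay on the palate under a cover for 1 h, and tissue was taken on day 4. The cells were released by 20 min of collagenase II and then 30 min of trypsin, and those of 4 mice went into each 10x library in equal numbers. Each ligand therefore had 1 library and the mice in it could not be told apart, no untreated library was analysed here, and ligand, library, mice and depth could not be separated. No test between ligands was possible. Every interval given covers counting error alone, at 95%, and ratios are CpG ODN over LPS of counts per 1000000 UMIs (CPM), summed over fibroblasts.

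The label held against its markers. Col1a1, which encodes the α1 chain of type I collagen, was at 8109 CPM in CpG ODN and 6042 CPM in LPS fibroblasts, and was seen in 217 of 220 and 47 of 48 cells. Col3a1 was at 12134 and 8060 CPM, Dcn (decorin) at 18140 and 17981 CPM, and Lum (lumican) at 2735 and 2067 CPM. These 4 genes took part in the selection, so their levels describe the choice. The markers outside the rule were also present, with Postn (periostin) at 2455 and 1840 CPM and Sfrp2, a secreted Wnt antagonist, at 1019 and 1759 CPM. At the edge of the rule, the collagen, Dcn and Lum share ran from 0.545% to 14.7% (median 4.44%) in CpG ODN members and from 0.516% to 9.74% (median 3.79%) in LPS members. The nearest barcodes outside were at 0.482% and 0.424%. The keratin limit set aside 18 and 11 barcodes, which held 0.890% or more and 0.546% or more of Krt5 and Krt14, against highest values of 0.114% and 0.350% among members.

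The LPS fibroblasts were the more deeply read. A CpG ODN fibroblast held a median of 3988.5 UMIs (1480 to 11386) and 1716 genes, and an LPS fibroblast 8736.5 UMIs (2715 to 19747) and 2732 genes, so the medians differed 2.19-fold. Summed over cells the depth was the reverse, 895194 UMIs in CpG ODN and 405977 in LPS, so that 3 UMIs were worth 3.35 and 7.39 CPM. Shares of cells are therefore also given after each cell was thinned to 2000 UMIs, which 202 CpG ODN and all 48 LPS fibroblasts had. The libraries had 5 barcodes in common and none of them was a fibroblast.

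Markers of most other cell types were low over the whole group and high in a few cells. The exception was the list for tendon or periodontal ligament (6 genes, Scx, Tnmd, Mkx, Thbs4, Fmod and Aspn). It summed to 1753 CPM in CpG ODN and 1251 CPM in LPS, with a UMI in 136 of 220 and 32 of 48 cells. At least 10 UMIs were held by 56 and 14 cells, and no alternative left out cells by this list. The endothelial genes Pecam1, Emcn, Flt1 and Tie1 were at 0 in both libraries, and the full list of 7 had a UMI in 2 CpG ODN and 3 LPS cells, with a summed level of 2.23 and 7.39 CPM. T cell genes (6) were seen in 2 and 0 cells and B cell genes (5) in 4 and 0 cells, at summed levels of at most 2.23 and 11.2 CPM, and the Schwann regulators Sox10 and Foxd3 were at 0, although the Schwann list of 6 summed to 127 and 83.7 CPM, mostly S100b. Neutrophil genes (5) were at 5.59 CPM in CpG ODN fibroblasts but at 724 CPM in LPS fibroblasts, where 1 cell held all 294 UMIs. Keratinocyte genes (11) summed to 445 and 914 CPM with 1 LPS cell holding 266 UMIs, and mural genes (8) to 562 and 746 CPM, with at least 10 UMIs in 2 and 6 cells and Rgs5 and Myh11 at 0 in LPS. Myeloid genes (7) summed to 349 and 123 CPM with up to 276 UMIs in 1 cell, red cell genes (4) to 1729 and 1847 CPM with up to 781, and osteoblast genes (5) to 209 and 0 CPM from 2 CpG ODN cells. The lists for melanocytes, adipocytes and skeletal muscle summed to at most 7.82 CPM in either library. Doublets were not called, so results that moved without these cells are given with that value.

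Most of what these cells transcribed was shared. The 10 most abundant genes were the nuclear RNA Malat1, 5 mitochondrial genes, Col3a1, Dcn, Sparc and Gsn. Gsn, which encodes the actin-severing protein gelsolin, reached 18380 CPM in CpG ODN and 20299 CPM in LPS fibroblasts. Sparc, a collagen-binding matrix protein, was at 8982 and 8606 CPM. Counts were taken from the 3′ ends of transcripts and are not scaled by length.

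Set beside the 5897 other kept barcodes, the 15 genes with the highest fold in fibroblasts were Cilp, Mmp3, Mfap4, Angptl1, Lum, Cpz, Sfrp2, Itgbl1, Tspan11, C1qtnf3, Pi16, Cpxm1, Clec3b, Apod and Scara5. Pi16, a peptidase inhibitor of adventitial fibroblasts, was at 1556 and 1239 CPM, and Apod, which encodes the lipid carrier apolipoprotein D, at 1607 and 2128 CPM. Col1a1 and Lum chose the cells, so these folds are a description.

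The 8 subset genes were each concentrated in a minority of cells. Counting cells with at least 1 UMI, they reached at most 38.6% of the fibroblasts of a library, while Dcn and Col1a1 were found in nearly every cell. No subset gene was seen in 38 CpG ODN and 11 LPS fibroblasts, exactly 1 in 80 and 17, 2 in 64 and 15, 3 in 31 and 4, and 4 in 7 and 1.

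Cxcl1, which encodes a neutrophil-attracting chemokine (GRCm38 chr5:90891241-90893115, plus strand), gave 648 UMIs in 85 CpG ODN cells (38.6%) and 195 UMIs in 14 LPS cells (29.2%). That is 724 and 480 CPM, a ratio of 1.51 (1.28 to 1.78). At 2000 UMIs per cell the shares were 32.1% and 20.8%. The highest cell held 52 UMIs in CpG ODN and 78 in LPS. Without the highest cell of each library the ratio was 2.28. Cxcl1 was not particular to fibroblasts: 7.69% and 9.10% of keratinocytes (median 12331.5 and 24436 UMIs) and 0.419% and 0% of B cells (median 3041 and 3264.5 UMIs) had a UMI after the same thinning. Among stromal and vascular cells the thinned shares were 36.6% and 17.5% for mural cells (23 and 9 before thinning, median 3753 and 11152 UMIs) and 20.8% and 10.0% for endothelial cells (42 and 21, median 3267.5 and 5152 UMIs). Of all Cxcl1 UMIs over the kept barcodes, fibroblasts held 12.4% in CpG ODN and 4.59% in LPS.

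Has1, a hyaluronan synthase (chr17:17843323-17855205, minus strand), was at 200 and 103 CPM, from 179 UMIs in 49 cells and 42 UMIs in 8 cells. The ratio was 1.93 (1.37 to 2.77), and the thinned shares were 16.8% and 9.68% against at most 0.1% of keratinocytes. Sfrp4, a secreted Wnt antagonist (chr13:19623104-19632994, plus strand), lay the other way at 72.6 and 131 CPM, in 23 and 13 cells, ratio 0.556 (0.381 to 0.815). Single cells held 29 of its 65 CpG ODN UMIs and 33 of its 53 LPS UMIs, and without the cells that carried at least 10 UMIs of another type's markers its ratio turned to 1.68.

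Tnn, which encodes tenascin-N (chr1:160085029-160153580, minus strand), was at 118 CPM in 27 CpG ODN cells and 197 CPM in only 3 LPS cells. Its ratio of 0.601 (0.445 to 0.814) went against the thinned shares of 10.8% and 6.24%, so no order of the libraries is read from it, and it was 0.925 without the highest cell of each and 0.383 without cells holding at least 10 UMIs of another type's markers. Crabp1, a cytosolic retinoic acid binding protein (chr9:54764748-54773110, plus strand), was at 398 CPM in 71 cells and 236 CPM in 9 cells, with a ratio of 1.68 (1.34 to 2.13) and thinned shares of 24.9% and 12.4%. Myoc (myocilin, chr1:162639155-162649693, plus strand) was at 604 and 850 CPM from 39 and 11 cells, and its single highest cells held 90 and 127 UMIs. The Myoc ratio of 0.711 (0.620 to 0.816) was 0.923 without those cells, 0.990 at a collagen share of at least 2% and 0.612 without fibroblasts holding at least 3 UMIs of a list of other markers, and the thinned shares were close at 16.7% and 18.2%. Of all UMIs over the kept barcodes, fibroblasts held 30.1% and 25.4% for Myoc, 69.8% and 47.1% for Crabp1 and 75.2% and 98.8% for Tnn. Myoc and, in LPS, Crabp1 thus lay mostly outside the fibroblasts.

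Counting cells with a UMI, Cilp and Grem1 were the scarcest of the 8 in CpG ODN, and in LPS Tnn was as scarce as Grem1. After thinning, Sfrp4 had a smaller CpG ODN share (6.53%) than Grem1. Cilp, a cartilage intermediate layer protein (chr9:65265180-65280605, plus strand), was at 143 CPM in 15 CpG ODN cells and 61.6 CPM in 2 LPS cells, and 24 of its 25 LPS UMIs came from 1 cell. Grem1 (gremlin, a secreted BMP antagonist, chr2:113746164-113758646, minus strand) was at 142 CPM from 127 UMIs in 20 cells and at 12.3 CPM from 5 UMIs in 3 cells. Its ratio was 11.5 (4.81 to 36.1). The Cilp ratio was 2.32 (1.504 to 3.72), and 47.2 without the highest cell of each library. Thinned shares were 6.998% and 1.993% for Grem1 and 5.67% and 3.30% for Cilp. Keratinocytes were below 0.1% for both.

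**Figure D1:**
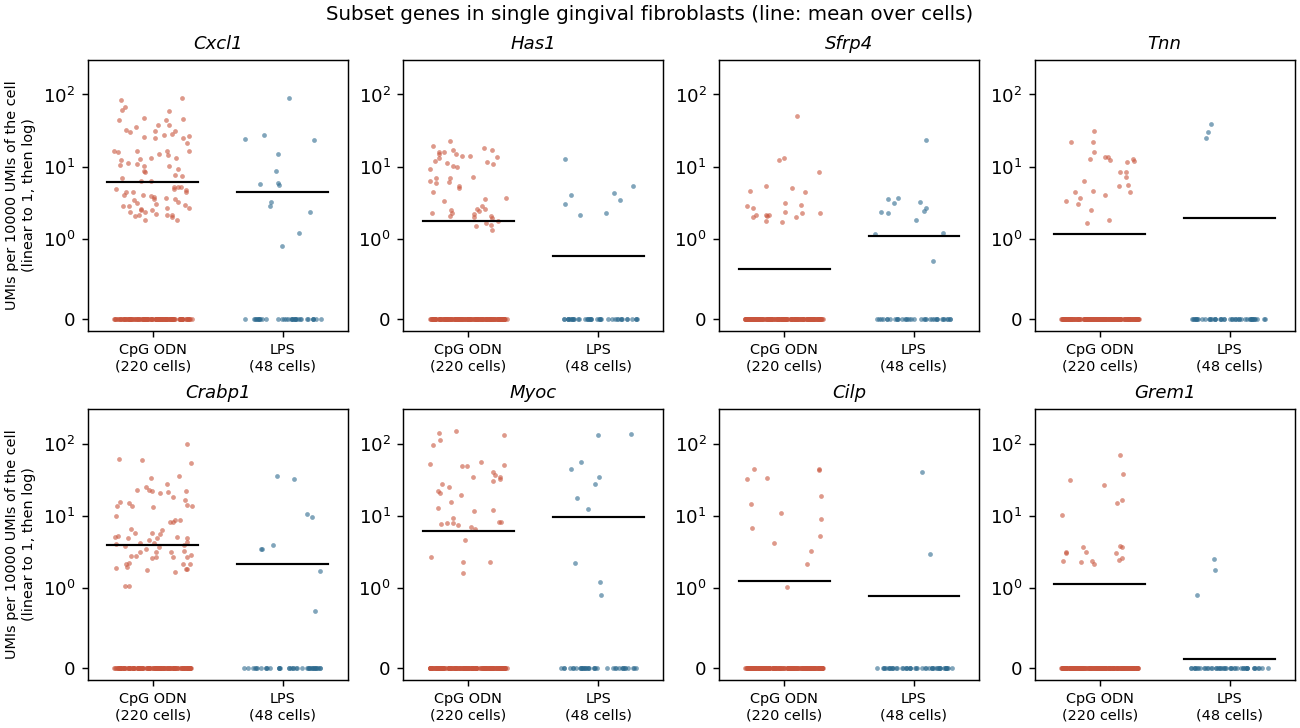
UMIs of each subset gene per 10000 UMIs of the cell, in 220 CpG ODN and 48 LPS fibroblasts, on an axis that is linear up to 1 and logarithmic above. Each point is a cell and the line is the mean over cells, and most cells lie at 0 for each gene while Tnn in LPS rests on 3 cells.

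The variance over the mean, which is 1 under random sampling, was above 1 for the 8 genes in CpG ODN fibroblasts and for 7 of them in LPS fibroblasts, where thinning left Grem1 with no UMI. In counts thinned to 2000 UMIs the ratio was 6.75 and 14.2 for Cxcl1 (CpG ODN and LPS) and 14.6 and 20.1 for Myoc. Crabp1 had 5.39 and 4.37, Sfrp4 5.45 and 2.57, Tnn 3.09 and 5.96, and Has1 2.71 and 1.58. Cilp had 5.49 and 9.79, and Grem1 7.15 in CpG ODN. The abundant Dcn (15.03 and 16.19) and Col1a1 (12.5 and 7.39) also exceeded it, so a high value is not particular to subset genes. Over all genes the 15 highest in both libraries were led by the red cell gene Hbb-bs, which had 565 and 576 UMIs in single cells, and held Malat1, Mgp, Slpi, Apoe, Apod, Hba-a1, Gsn, Col3a1, Igfbp2, Hba-a2, Cst3, Dcn, Myoc and Igfbp5.

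Some pairs of these genes met in the same cells and others did not. Has1 was found in 36 of 85 Cxcl1-positive CpG ODN cells (42.4%) against 9.63% of the Cxcl1-negative ones, and in 6 of 14 (42.9%) against 5.88% in LPS. Tnn was found in 23 of 71 Crabp1-positive CpG ODN cells (32.4%) against 2.68% of the rest, and all 3 Tnn-positive LPS cells held Crabp1. Grem1 overlapped with Crabp1 in 11 of its 20 and 2 of its 3 cells, against 30.0% and 15.6% of the cells without Grem1. By contrast no cell of either library had both Sfrp4 and Tnn, while Tnn was in 13.7% and 8.57% of the cells without Sfrp4. None of the 20 Grem1-positive CpG ODN cells had Myoc, against 19.5% of the others. In LPS 1 of 3 Grem1-positive cells had it, against 22.2% of the others. With so few positive cells, a missing overlap is not read as exclusion. Deeper cells show more pairs, and these counts were not thinned.

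Cxcl1-positive cells had higher levels of several inflammatory genes and of the metallothionein genes. Before thinning, their median depth was 4619 UMIs against 3983 in CpG ODN, and 9022.5 against 8457.5 in LPS. After thinning, 65 Cxcl1-positive and 137 negative CpG ODN cells had Ccl2, a chemokine for monocytes, at 738 and 62.0 CPM, Il6 at 162 and 29.2 CPM, Cxcl10 at 515 and 69.3 CPM, and Nfkbia at 1300 and 551 CPM. The metallothionein genes Mt1 (3785 and 1464 CPM) and Mt2 (1400 and 547 CPM) were also higher there. In LPS, with 8 positive and 40 negative cells, Ccl2 was at 1500 CPM from 2 cells against 87.5 CPM, Il6 at 562 CPM from 9 UMIs in 3 cells against 0 CPM, and Nfkbia at 1000 and 638 CPM. Mt1 was at 1562 and 950 CPM there, and Mt2 at 625 and 600 CPM. Tnfaip6, which encodes a hyaluronan-binding protein made in inflammation, followed at 538 and 212 CPM and at 938 and 150 CPM. The mitochondrial share was lower in Cxcl1-positive cells, with medians of 4.55% against 6.01% in CpG ODN and 3.99% against 6.92% in LPS, and its part in the difference was not tested. Over cells, Cxcl1 correlated most with Ccl2 (r = 0.48 over 220 CpG ODN cells and 0.50 over 48 LPS cells), Ifrd1 (0.47 and 0.49) and Has1 (0.45 and 0.48), genes singled out after their values were seen. These coefficients describe cells of the same library that share its depth.

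Of 19 genes looked up, 13 had a 300-base RefSeq promoter (GRCm38.p6, 250 bases before to 50 after the start). Of these, 5 held an NF-κB type motif (GGGA, any base, then TTTCC) on either strand, which 135 of 32851 promoters (0.411%) hold. They were Cxcl1, Cxcl2, Il6, Nfkbia and Tnn. The genes were chosen by name and include the NF-κB target Nfkbia and other inflammatory genes, so their share with a match is not read as a result. The promoters of Cxcl1 and Nfkbia are printed because Nfkbia stood higher in the cells chosen by a Cxcl1 UMI. In LPS its intervals overlapped, at 1000 (572 to 1624) and 638 (475 to 838) CPM. That of Tnn is printed because it holds the letters although 21 of its 27 CpG ODN cells and its 3 LPS cells had no Cxcl1. Capitals mark the match, which starts 71, 29 and 81 bases before the start in the order given, from chr5:90890995-90891294 (plus strand), chr12:55492598-55492897 (minus strand) and chr1:160153526-160153825 (minus strand). A match is only a run of letters and says nothing of binding.
Cxcl1: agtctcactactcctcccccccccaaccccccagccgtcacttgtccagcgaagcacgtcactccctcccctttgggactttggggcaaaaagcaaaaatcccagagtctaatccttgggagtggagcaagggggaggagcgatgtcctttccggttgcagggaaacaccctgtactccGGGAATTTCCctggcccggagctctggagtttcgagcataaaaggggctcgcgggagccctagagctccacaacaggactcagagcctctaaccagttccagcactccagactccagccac
Nfkbia: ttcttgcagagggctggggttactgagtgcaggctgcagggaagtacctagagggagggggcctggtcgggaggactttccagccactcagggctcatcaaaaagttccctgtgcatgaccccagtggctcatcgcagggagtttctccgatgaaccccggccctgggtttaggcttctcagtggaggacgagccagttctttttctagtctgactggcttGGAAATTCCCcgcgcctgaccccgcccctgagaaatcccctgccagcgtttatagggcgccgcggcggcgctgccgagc
Tnn: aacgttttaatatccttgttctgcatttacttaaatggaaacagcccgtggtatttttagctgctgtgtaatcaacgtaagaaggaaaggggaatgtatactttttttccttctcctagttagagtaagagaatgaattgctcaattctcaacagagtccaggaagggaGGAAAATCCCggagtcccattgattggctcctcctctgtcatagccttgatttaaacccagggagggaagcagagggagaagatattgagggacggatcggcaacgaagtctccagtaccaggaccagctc
No match was found in this window for Has1, Tnfaip6, Cxcl10, Crabp1, Myoc, Cilp, Grem1 or Ctsk.

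Crabp1-positive cells had a matrix profile of their own. In the CpG ODN library, 53 positive and 149 negative cells after thinning had Tnc (tenascin-C) at 830 and 83.9 CPM and Tnn at 434 and 20.1 CPM. Wif1, a secreted Wnt inhibitor, was at 1179 and 225 CPM, and Cyp26b1, which degrades retinoic acid, at 783 and 228 CPM. The 7 positive LPS cells had Tnc at 929 CPM and Wif1 at 2857 CPM against 24.4 and 293 CPM in the 41 negative ones. Decorin went the other way, at 10896 against 21446 CPM in CpG ODN and 12000 against 21378 CPM in LPS. Pi16 was likewise lower, at 943 against 1705 CPM and 71.4 against 1390 CPM. Across cells Tnn and Crabp1 both correlated most with Tnc (0.63 and 0.61 in CpG ODN, 0.88 and 0.78 in LPS) and with the nuclear receptor gene Rorb (0.59 and 0.59, 0.83 and 0.78).

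The 268 cells were clustered without the subset genes, the protease, osteoclast regulator, TLR, inflammatory and immediate early lists, Col14a1 and the genes of the rule, and gave 4 sub-clusters, which are given by number. Sub-cluster 1 had 85 CpG ODN and 17 LPS cells and was led by the interferon-inducible genes Ifi207 and Ifi204. Sub-cluster 2 had 63 and 8 cells and was led by Pcp4 and Tnc, with the tenomodulin gene Tnmd and Col12a1 among its first 10. Sub-cluster 3 had 45 and 18 cells, led by the contractile and elastic genes Myl9, Eln, Tpm2 and Mylk. There 1 cell held 63.9% of the CpG ODN Myl9 UMIs and 1 cell 22.6% of the LPS ones. Sub-cluster 4 had 27 and 5 cells, led by Ebf2, Abca8a, Tgfbi and Apod. Their shares of the fibroblasts were 38.6% and 35.4%, 28.6% and 16.7%, 20.5% and 37.5%, and 12.3% and 10.4%. The intervals overlapped between libraries for each, which does not show that the shares are equal. For sub-cluster 3 they ran from 15.3 to 26.4% in CpG ODN and from 24.0 to 52.6% in LPS. With 8 or 5 LPS cells in 2 of the sub-clusters the shares are imprecise. At a finer resolution of 1.0 the cells fell into 8 groups.

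The subset genes were unevenly placed over these sub-clusters, whose estimated shares differed between libraries. Ratios summed over all fibroblasts therefore do not separate the mix of sub-clusters from the level within each. The part of this mix was not tested. Cxcl1 was at 1383 CPM (CpG ODN) and 1050 CPM (LPS) in sub-cluster 1, 962 and 509 CPM in sub-cluster 4, 249 and 94.0 CPM in sub-cluster 3, and 92.9 and 0 CPM in sub-cluster 2. Has1 was highest in sub-cluster 1 in both libraries, at 438 and 209 CPM. Tnn had no UMI in sub-clusters 1 and 4 and stood at 376 and 1580 CPM in sub-cluster 2. Crabp1 was at 1077 (954 to 1211) and 1422 (1113 to 1791) CPM there, although over all fibroblasts it was higher in CpG ODN. Its LPS level there came from 3 of 8 cells. Grem1 was at 476 and 79.0 CPM in sub-cluster 2, from 123 of 127 and 4 of 5 UMIs. Myoc was divided between sub-cluster 2 (1034 and 810 CPM) and sub-cluster 3 (1177 and 1817 CPM). Sfrp4 had 56 of 65 CpG ODN UMIs in sub-cluster 1, from 19 of its 85 cells. Of 53 LPS UMIs 41 lay in sub-cluster 3, but 1 cell held 33 of them. By cells, LPS Sfrp4 was found in 8 of 17 in sub-cluster 1 and in 5 of 18 in sub-cluster 3.

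**Figure D2:**
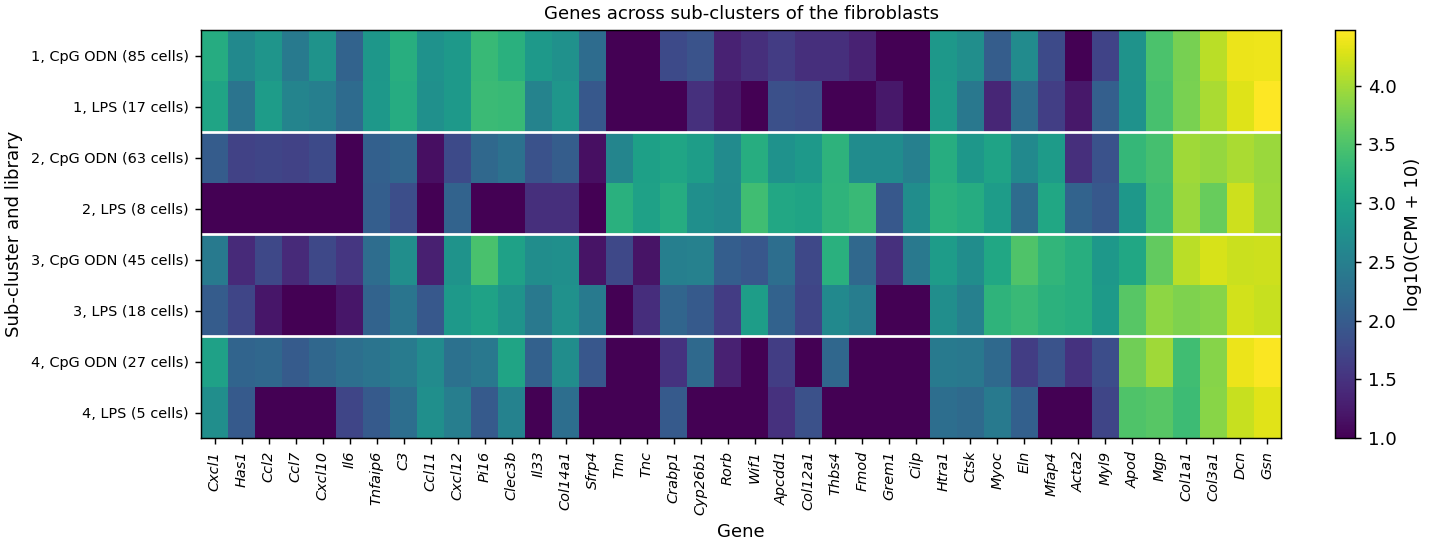
Levels of the subset genes, Ctsk, Col14a1 and further fibroblast genes (columns) in the 4 sub-clusters of each library, coloured by log10 of CPM plus 10. Tnn and Crabp1 stand highest in sub-cluster 2 and Has1 in sub-cluster 1 in both libraries.

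Ctsk, which encodes cathepsin K, a collagen-degrading cysteine protease best known from osteoclasts (chr3:95499256-95509362, plus strand), was spread more widely than any subset gene. It was found in 164 of 220 CpG ODN fibroblasts (74.5%) and 35 of 48 LPS fibroblasts (72.9%), or 57.1% and 42.1% at equal depth. Keratinocytes were at 0.0342% and 0.0443% after thinning and B cells at 0.212% and 0.240%. Fibroblasts held 93.5% and 88.5% of all Ctsk UMIs of the kept barcodes. The level was 528 CPM (473 UMIs) in CpG ODN and 399 CPM (162 UMIs) in LPS, a ratio of 1.32 (1.11 to 1.59). Of the LPS UMIs 37 lay in 1 cell, without which, and without the highest CpG ODN cell, the ratio was 1.60. Over cells Ctsk went most closely with the protease gene Htra1 (r = 0.41 in both) and with Col1a1 (0.49 and 0.36).

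Col14a1, the collagen XIV gene that marks part of gingival fibroblasts (chr15:55307750-55520803, plus strand), was at 414 and 485 CPM, ratio 0.854 (0.717 to 1.02). It was present in 100 and 31 cells, 37.2% and 42.2% after thinning. Ctsk was not higher in Col14a1-positive cells: 77 positive and 125 negative CpG ODN cells had it at 481 (377 to 603) and 600 (508 to 704) CPM, with nearly equal shares of 58.4% positive. In LPS, 19 positive and 29 negative cells had 237 (108 to 450) and 483 (321 to 698) CPM. Col14a1-positive cells instead held more Pi16, at 2532 against 872 CPM in CpG ODN and 1947 against 707 CPM in LPS, and more Cxcl12, a stromal chemokine, at 701 against 344 CPM and 1395 against 362 CPM. By sub-cluster, Ctsk was highest in the Tnn-rich sub-cluster 2, at 678 CPM in CpG ODN and 1383 CPM in LPS, and Col14a1 lowest there, at 96.8 and 19.8 CPM. Against the other fibroblasts that is 1.45-fold (1.19 to 1.75) and 5.34-fold (3.86 to 7.37) for Ctsk, with 52.9% of the LPS UMIs from 1 cell, and 0.178-fold (0.114 to 0.268) in CpG ODN for Col14a1. At resolution 1.0 the CpG ODN Ctsk fold was 0.965, so its direction depended on how finely the cells were divided. Tnmd, Fmod, Aspn and Thbs4 of the tendon or periodontal ligament list were also highest in sub-cluster 2 in both libraries. Tnmd was there at 310 and 395 CPM, in 28 of 63 and 5 of 8 cells. Whether ligament cells lay among them was not tested.

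**Figure D3:**
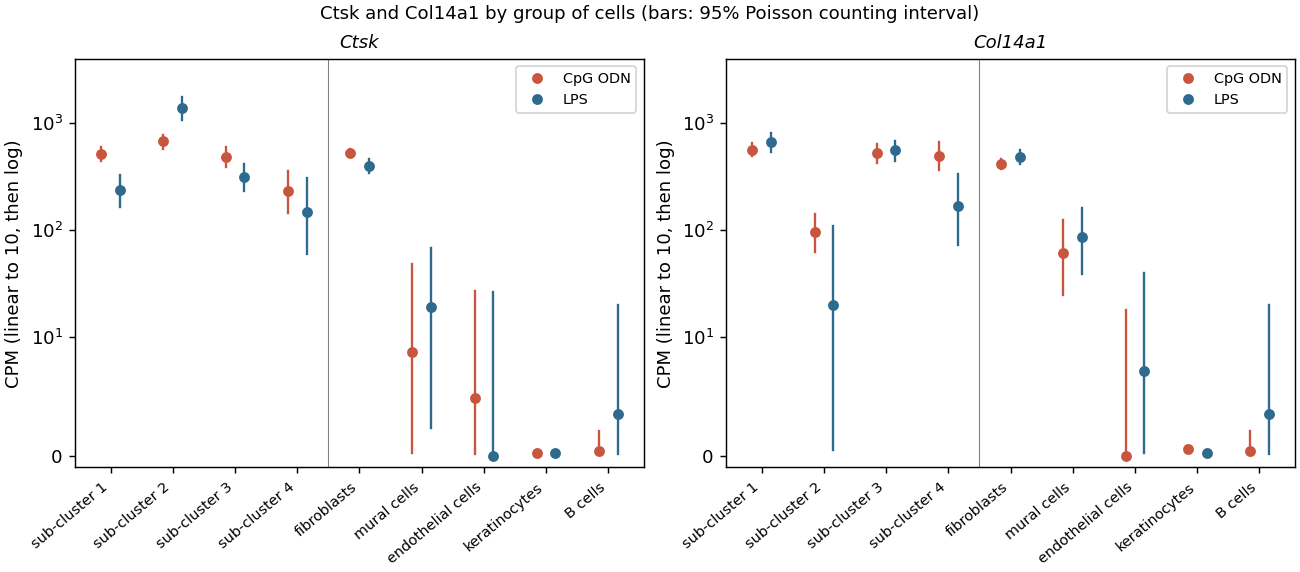
Ctsk and Col14a1 in CPM (linear up to 10, then logarithmic) over the sub-clusters, all fibroblasts and 4 other groups of cells, with bars for 95% Poisson intervals, in each library. Ctsk is highest and Col14a1 lowest in sub-cluster 2, at 678 and 96.8 CPM in CpG ODN, and keratinocytes lie near 0 for both genes.

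Transcripts of the receptors for the ligands were few. Tlr9 had 0 UMIs in the fibroblasts of both libraries, under the floor of 3 UMIs. Over all kept barcodes it had only 6 UMIs in CpG ODN and 0 in LPS. It was hardly captured in any cells, so its absence is not particular to fibroblasts. Tlr2 had 22 and 12 UMIs and Tlr4 17 and 7 UMIs, above that floor. Of the signalling genes, Myd88 was at 53.6 and 24.6 CPM (48 and 10 UMIs), ratio 2.18 (1.09 to 4.83). Irak1 was at 55.9 and 73.9 CPM and Nfkb1 at 121 and 153 CPM, with intervals that held 1, and Map3k7, the gene of the kinase TAK1, had 23 and 11 UMIs. Nfkbia was at 849 and 746 CPM, and Nfkbiz, an inducible nuclear IκB protein, at 277 and 172 CPM, ratio 1.61 (1.23 to 2.13). In thinned CpG ODN cells Nfkb1 was at 162 (105 to 240) CPM in Col14a1-positive and 84.0 (52.0 to 128) CPM in negative cells, and Irak1 at 84.4 and 56.0 CPM, from 13 and 14 UMIs. Myd88 was at 51.9 and 44.0 CPM there, and Rela lay the other way at 58.4 and 68.0 CPM. In LPS the splits of these genes rested on 6 UMIs or fewer per gene and side. Nfkbia was better counted and differed in direction between libraries. It was at 968 (818 to 1136) and 684 (585 to 795) CPM in CpG ODN, but at 316 (163 to 552) and 948 (714 to 1234) CPM in LPS, from 12 and 55 UMIs.

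Over all 3816 genes with at least 50 UMIs in the fibroblasts, which held 88.1% of the UMIs, the median log2 ratio was 0.00. There were 99 genes (2.59%) at least 2-fold higher in CpG ODN and 70 (1.83%) at least 2-fold higher in LPS, 4.43% in all. The counting interval lay above 1 for 322 genes (8.44%) and below 1 for 299 (7.84%). Lists are read against these shares. Without the highest cell of each gene in each library, 174 and 42 genes passed 2-fold.

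Among genes with at least 100 UMIs and seen in at least 10% of the cells of a library, those with the highest ratios were Iigp1, an interferon-inducible GTPase (107 and 14.8 CPM, ratio 7.26, 3.21 to 20.3), Dio3, which inactivates thyroid hormone (161 and 44.3 CPM), and Gadd45g, a growth arrest gene (399 and 111 CPM). They were followed by C1qtnf3, Cyp26b1, Vcan, Mme, Igsf10, Fibin and Chodl, down to a ratio of 2.60. Vcan, the gene of the large hyaluronan-binding proteoglycan versican, was the most abundant of them at 747 and 234 CPM, ratio 3.19 (2.57 to 4.00).

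At the other end stood Lgals7, Mt4, Clu, Igfbp2, Inmt, Chad, Ptn, Tagln and Ccn2. Lgals7 and Mt4 are epithelial genes, and 1 LPS cell held 120 of 141 Lgals7 UMIs. At a collagen share of at least 2% the directions of Lgals7 (1.09), Mt4 (1.05) and Chad (1.29) turned. Without cells holding at least 10 UMIs of another type's markers, Lgals7 was at 1.57 and the ratio of Clu was 0.828. Inmt, a methyltransferase gene, was at 423 CPM in 80 cells and 1360 CPM in 34 cells, so that it was 3.21-fold (2.81 to 3.67) higher in LPS, with 11.8% of its LPS UMIs in the highest cell. Ccn2, a matricellular growth factor gene responsive to TGF-β, was at 139 and 399 CPM, 2.88-fold (2.27 to 3.67) higher in LPS. Igfbp2, at 280 and 1079 CPM, turned to a ratio of 4.19 under that limit on other types' markers.

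**Figure D4:**
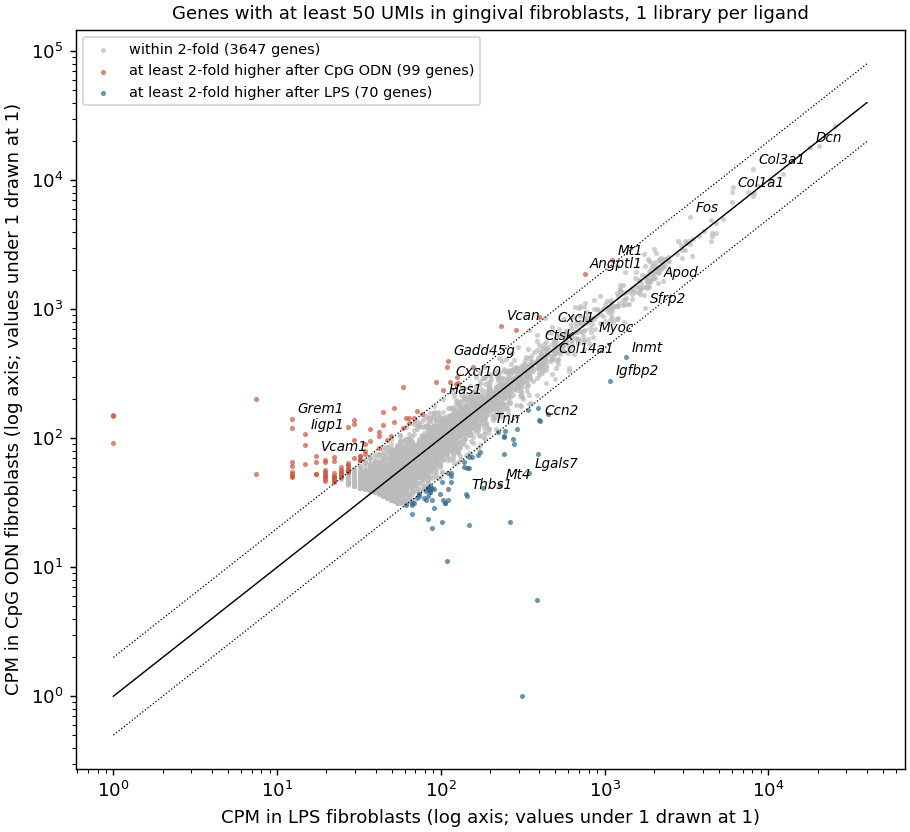
CPM of 3816 genes in CpG ODN fibroblasts against LPS fibroblasts on log axes, each point a gene, with lines at equal levels and at 2-fold. 99 genes lie above and 70 below the 2-fold lines, and Vcan, Gadd45g and Angptl1 sit among the abundant genes above.

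Immediate early and stress genes were mostly higher in CpG ODN fibroblasts. Of 32 tested members the interval lay above 1 for 19 and below 1 for 1, and the median log2 ratio was 0.47. Fos, a subunit of AP-1, was at 5159 and 3333 CPM, ratio 1.55 (1.46 to 1.65). Egr1 was at 2664 and 1737 CPM, and the metallothionein gene Mt1 at 2403 and 1108 CPM, ratio 2.17 (1.96 to 2.4). Gadd45g had the highest ratio, and Hspb1, the member below 1, was at 155 and 227 CPM, which turned to a ratio of 1.52 without fibroblasts holding other markers. In keratinocytes of the same libraries the median of 33 members was 0.03 and in B cells that of 26 was -0.03, beside medians of all tested genes of -0.04 and 0.21.

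Fibrillar collagens were higher in CpG ODN for 3 of 8 members, Col1a1 (ratio 1.34), Col1a2 (8842 and 6091 CPM, 1.45) and Col3a1 (1.51, 1.45 to 1.57), and lower for none, with a median of 0.33. All 3 were used to choose the cells. Among 14 other collagens 5 were higher and 2 lower (median 0.05), with Col6a1 at 1025 and 1069 CPM and Col15a1, of basement membrane zones, at 325 and 229 CPM. Of 15 genes of collagen maturation, 13 had intervals that held 1, among them Serpinh1, the collagen chaperone (1065 and 1140 CPM), with P4ha2 higher (ratio 2.13) and Pcolce2 lower (0.827), median -0.08.

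Among 10 leucine-rich proteoglycans 3 were higher and 3 lower (median -0.05). Fmod (fibromodulin) was at 171 and 392 CPM, ratio 0.436 (0.347 to 0.548), and Omd (osteomodulin) at 218 and 133 CPM, ratio 1.64 (1.21 to 2.26). Matrix glycoproteins had 5 higher and 9 lower of 31 (median -0.14). Tnc was at 269 and 128 CPM, ratio 2.10 (1.55 to 2.89), but at 929 and 968 CPM within sub-cluster 2. Thbs1, which encodes thrombospondin 1, was at 36.9 and 143 CPM, ratio 0.258 (0.163 to 0.402). Fn1 (fibronectin) was at 2469 and 2345 CPM, with an interval of 0.975 to 1.14. The hyaluronan list had 2 of 6 higher, Has1 and Vcan, and 1 lower, Itih5 at 155 and 259 CPM, median 0.13.

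Matrix proteases had 3 higher and 4 lower of 17 tested (median 0.13). Mmp2 (gelatinase A) was the most abundant at 1677 and 1628 CPM, ratio 1.03 (0.939 to 1.13). Htra1 was at 891 and 709 CPM, ratio 1.26 (1.10 to 1.44). Mmp3 (stromelysin 1) was at 104 and 244 CPM, ratio 0.426 (0.318 to 0.571), and Plat, the tissue plasminogen activator gene, at 40.2 and 83.7 CPM. Protease inhibitors had 1 higher and 3 lower of 9 (median -0.12), with Timp2 at 1748 and 2032 CPM and Cst3, which inhibits cysteine cathepsins, at 1973 and 1870 CPM.

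The regulators of osteoclast formation were sparse. Tnfsf11, which encodes RANKL, had 0 UMIs in both libraries, and Tnfrsf11b, its decoy receptor OPG, had 3 and 0. Csf1 was at 86.0 and 73.9 CPM, Il34 had 39 and 9 UMIs, and Ptgs2 was the 1 of 3 tested members that was higher, at 54.7 and 19.7 CPM, ratio 2.78 (1.3 to 6.79). Il6 was at 70.4 and 64.0 CPM, with an interval of 0.686 to 1.81. The list's median was 0.22. Over the TLR pathway 9 of 35 members had 50 UMIs, and 2 were higher, median 0.32.

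The inflammatory list had 6 higher and 4 lower of 20 (median -0.08). Cxcl10, a T cell attractant induced by interferon, was at 274 and 113 CPM, ratio 2.42 (1.76 to 3.39). Il33, an alarmin, was at 417 and 227 CPM, ratio 1.84 (1.46 to 2.34), and Vcam1, an adhesion molecule for leukocytes, had the highest ratio of 4.21 (1.93 to 10.9). Ccl2 was near equal at 284 and 303 CPM, although without the highest cell of each library its ratio was 2.4. Cxcl5 (102 and 244 CPM) and Cxcl12 (456 and 594 CPM) were lower. Interferon-response genes had 2 higher, Irf1 (357 and 182 CPM) and Iigp1, and 1 lower, Ifitm1 (22.3 and 101 CPM), of 11 tested, median 0.11.

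Complement was the list lowest in CpG ODN fibroblasts, with 6 of 10 members below and 2 above, median -0.63. Clu (clusterin) was at 41.3 and 180 CPM, and Cfb (factor B) at 76.0 and 148 CPM, ratio 0.514 (0.358 to 0.740). Above were C4b (176 and 91.1 CPM) and C3 (764 and 626 CPM), the latter with a ratio of 0.935 when every cell weighed the same. In keratinocytes 5 complement genes could be tested, with a median of -0.13.

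Of the growth factor lists, the Wnt axis had 4 of 12 lower and none higher, and all 4 encode secreted antagonists. The list was drawn up with many such antagonists, so this is not read as a result about them. Sfrp2 was at 1019 and 1759 CPM, ratio 0.579 (0.525 to 0.640), Wif1 at 448 and 653 CPM, ratio 0.686 (0.586 to 0.804), and Sfrp1 at 144 and 209 CPM. The last was Sfrp4, which, of the alternatives tried, reversed only where cells holding at least 10 UMIs of another type's markers were left out. The list's median was -0.25. The BMP axis had 4 higher and 3 lower of 13 (median -0.07), with Id3, a BMP target, at 1020 and 695 CPM and Twsg1 at 114 and 246 CPM. The TGF-β axis had 1 higher and 4 lower of 20 (median -0.07), the lower ones Ccn2, Tgfbr3, Acta2 (331 and 608 CPM) and Tagln (154 and 453 CPM). In CpG ODN sub-cluster 3, 1 cell held 82.0% of 289 Acta2 UMIs and 1 cell 80.6% of 129 Tagln UMIs. The other CpG ODN sub-clusters had at most 5 UMIs of either gene, so these CpG ODN levels rest largely on single cells. Acta2 and Tagln are also mural genes.

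Among 21 paracrine factors and receptors 3 were higher and 5 lower (median 0.05). Angptl1, an angiopoietin-like secreted protein, was at 1889 and 756 CPM, ratio 2.50 (2.21 to 2.83), and Gas6, the ligand of AXL, at 461 and 271 CPM. Ptn (pleiotrophin, 136 and 404 CPM) and Vegfd (33.5 and 103 CPM) were lower. Retinoid genes had 2 higher of 7, Crabp1 and Cyp26b1 (357 and 108 CPM, ratio 3.30), with a median of -0.05. The pan-tissue fibroblast genes had 3 higher and 5 lower of 12 (median -0.14), with Ly6a at 839 and 1192 CPM.

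Transcription factors of jaw and mesenchyme had 7 higher and 3 lower of 21 (median 0.24). Prrx1, of craniofacial mesenchyme, was at 790 and 670 CPM, ratio 1.18 (1.02 to 1.36), and Msx1 at 149 and 91.1 CPM. Barx1 (78.2 and 172 CPM), Osr2 (71.5 and 155 CPM) and Foxd1 (51.4 and 116 CPM) were the lower ones. Cells in division were barely seen: Mki67 had 0 UMIs in CpG ODN and 7 in 1 LPS cell, and of the division list Pcna alone could be tested, at 81.5 and 88.7 CPM, a log2 ratio of -0.12. The subset list itself had a median of 0.67 with 5 genes higher and 3 lower.

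**Figure D5:**
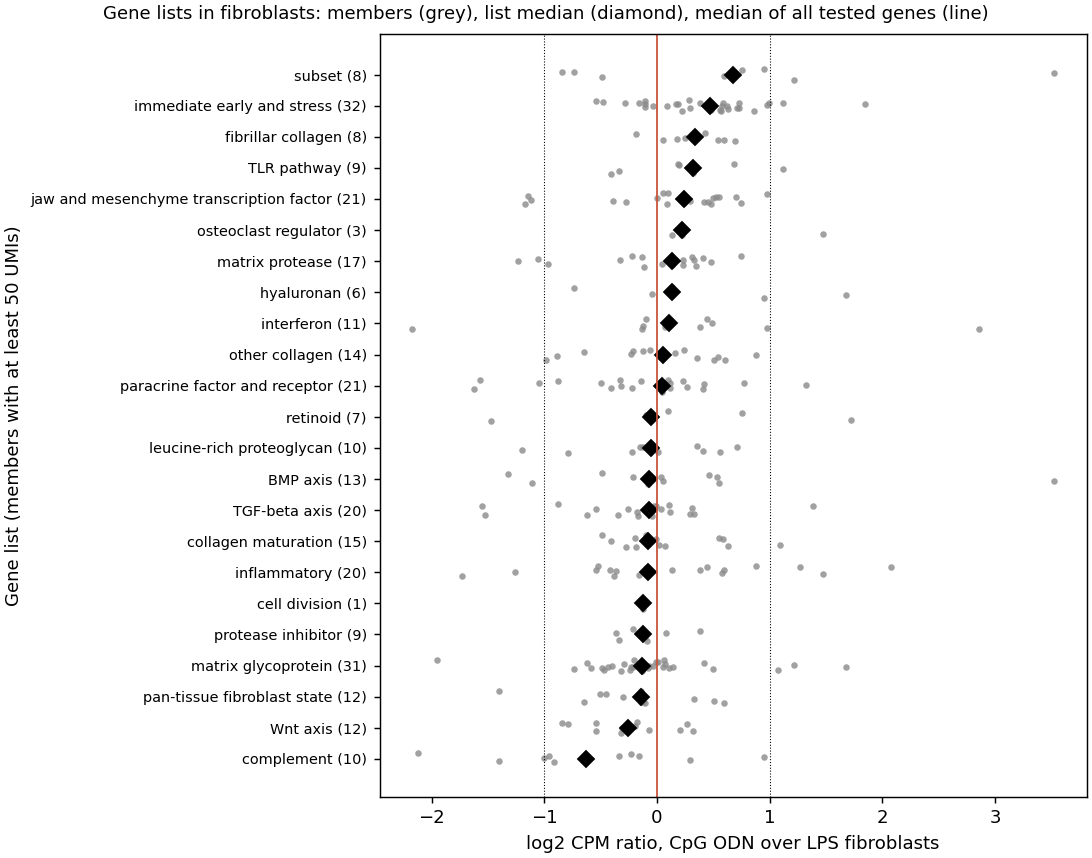
log2 of the CPM ratio, CpG ODN over LPS, for members of 23 gene lists with at least 50 UMIs in fibroblasts, each point a gene and the diamond the list's median. Immediate early and stress genes have a median of 0.47 and complement genes -0.63, beside 0.00 over all tested genes.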

How the data were processed

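The data were 2 single-cell libraries. Per the labels and the study's methods the authors processed 10x reads with Cell Ranger 4.0.0, and the deposited values are raw UMI counts of 32285 features per barcode. The genome build was not given in the sources used here, and coordinates are those of the same gene identifiers in GENCODE M21 (GRCm38), which held 32235 features. Counts were summed over fibroblasts and scaled to CPM. Intervals were exact at 95%: Poisson for CPM, Clopper-Pearson for shares, conditional binomial for ratios. A gene was tested from 50 UMIs in both libraries together, and 3 UMIs was the floor. Thinning drew 2000 UMIs from each cell. Sub-clusters used log values per 10000, 1000 variable genes centred within library, 15 principal components, 10 neighbours and Leiden at 0.5, leaving out the genes of the rule, Col14a1, mitochondrial, ribosomal and hemoglobin genes and the subset, protease, osteoclast regulator, TLR, inflammatory and immediate early lists. Keratinocytes had at least 1% of UMIs from Krt5 and Krt14, and B cells at least 3 UMIs of Cd79a and Cd79b. Named genes were the markers, the 8 subset genes, Ctsk, Col14a1, abundant and extreme members of 23 lists, the 10 most abundant genes, the 10 highest and lowest ratios (at least 100 UMIs and a UMI in 10% of the cells of a library) and the 15 most variable and most fibroblast-restricted genes. Members, lists and rules were chosen with earlier results of these data known. Some genes that the rule names are not reported here. Of the list genes 1, Mx1, is not among the features. Other thresholds, weightings, scalings and cell sets were tried, and no doublet caller was run. The summed ratios and their intervals were tested on simulated Poisson counts only. Such counts lack the spread between cells seen here, so the intervals were not tested under that spread. Python 3.11.15, numpy 2.4.6, scipy 1.17.1, pandas 2.3.3, scikit-learn 1.9.0, igraph 0.11.9, leidenalg 0.10.2 and matplotlib 3.10.9 were used.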

Additional observations from a re-analysis of the deposited data

Results flagged for a closer look

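Outside the fibroblasts described, 17 CpG ODN barcodes and 2 LPS barcodes had fewer than 800 detected genes but met every other limit of the rule, and were singled out because they hold fibroblast signal in data no comparison used. The CpG ODN barcodes had 394 to 792 genes and 21393 UMIs together, with Dcn at 16454 CPM, Col1a1 at 3179 CPM and Cxcl1 at 608 CPM from 13 UMIs. The LPS barcodes had 439 and 470 genes and 2475 UMIs, of which Dcn gave 28 and Col1a1 20. Ctsk had 1 UMI in either set.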

How the results depend on the processing

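No paired analysis was possible because there was a single library for either ligand. Of 2389 values under alternatives, 2207 stayed within the limits set for them, 162 moved beyond these and 20 turned direction. A turn was counted only for ratios and folds whose main interval excluded 1, and not for list medians, shares or counts. The share of fibroblasts stayed within its interval throughout, at 4.03 to 4.26% in CpG ODN and 2.90 to 3.93% in LPS. Leaving out the highest cell of a gene, which removes 1 of 48 LPS but 1 of 220 CpG ODN cells, gave ratios of 2.28 for Cxcl1, 0.925 for Tnn, 2.38 for Crabp1, 0.923 for Myoc, 47.2 for Cilp and 1.60 for Ctsk. Under it the medians were 1.22 for the subset, 1.56 for the osteoclast regulator, 0.52 for the inflammatory and 0.60 for the hyaluronan list, 174 and 42 genes passed 2-fold, and Cxcl2 (1.22), Cxcl14 (3.69) and Hspb1 (1.01) turned. At 20 UMIs 375 and 274 of 7090 genes passed 2-fold, and at 200 UMIs 15 and 11 of 916. With a collagen share of at least 2%, Myoc was at 0.990, and Lgals7 (1.09), Mt4 (1.05), Chad (1.29) and Sparc (0.995) turned. Without fibroblasts holding at least 3 UMIs of a list of other markers, Myoc was at 0.612, the protease inhibitor median was 0.0239, and Cxcl2 (1.18) and Hspb1 (1.52) turned. A limit of 10 UMIs of any such list, chosen after seeing the data, gave 0.383 for Tnn and -0.30 for the protease inhibitors, and turned Sfrp4 (1.68), Lgals7 (1.57), Igfbp2 (4.19), Mfap4 (1.01), Igfbp4 (1.04), Cxcl2 (1.11), C2 (1.21) and C3 (0.949). Weighing cells equally gave 1.38 for Cilp and turned Igfbp5 (1.01) and C3 (0.935). Resolution 1.0 gave 8 sub-clusters and a Ctsk fold of 0.965 in the CpG ODN Tnn-rich group. The causes of these shifts were not tested. Depth limits what 48 LPS cells can show: 3 UMIs equal 7.39 CPM.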
